A study of Mus musculus with 12 samples.

Results

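The genes described here are the mineralocorticoid receptor and the enzymes, regulators and transport target around it. They are 7 of the 55414 genes in the count table, found by their mouse symbols: the receptor Nr3c2, the steroid enzymes Hsd11b2, Hsd11b1, Cyp11a1 and Cyp11b1, the nuclear receptor Nr5a2 and the sodium channel subunit Scnn1a. Bulk RNA-seq was run on cells sorted from small-intestinal crypts of C57BL/6J mice, with 3 libraries for each combination of genotype (WT or GRKO) and cell fraction (Paneth or non-Paneth). GR is the glucocorticoid receptor, encoded by Nr3c1, and the label GRvillinKO names villin, whose promoter is active in the intestinal epithelium as a whole, so that the deletion is not limited to either fraction. The mice were 8 to 12 weeks old by the study's methods, and the labels give no treatment beyond the sort. Paneth cells were gated as CD24+ cKIT+ cells with medium or high side scatter and without CD31, CD45 or TER119. Non-Paneth cells are a mixture of crypt cells for which no gate is stated. In these bulk libraries fewer cells of a type and less RNA per cell cannot be told apart.

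The mineralocorticoid receptor binds aldosterone, but it also binds corticosterone, the main glucocorticoid of mice, with high affinity. Hsd11b2 protects it by oxidising corticosterone to the inactive 11-dehydrocorticosterone, and Hsd11b1 can run the reaction back with NADPH made by H6pd. In epithelia the activated receptor raises sodium uptake through the epithelial sodium channel, whose alpha, beta and gamma subunits are encoded by Scnn1a, Scnn1b and Scnn1g, and through the kinase Sgk1, which glucocorticoids also induce. The intestine has been described as a site of glucocorticoid synthesis of its own: there Nr5a2 (LRH-1), a nuclear receptor of crypt cells, drives Cyp11a1, which cleaves the side chain of cholesterol, and Cyp11b1, which makes the last step to corticosterone. This synthesis is known chiefly after immune stimulation.

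In GRCm39, Nr3c2 (ENSMUSG00000031618) lies on chromosome 8 from 77625576 to 77971863 on the plus strand and Hsd11b2 (ENSMUSG00000031891) on the same chromosome and strand from 106245369 to 106250620. Nr5a2 (ENSMUSG00000026398) and Hsd11b1 (ENSMUSG00000016194) lie on the minus strand of chromosome 1, from 136770303 to 136888186 and from 192903918 to 192946489. Cyp11a1 (ENSMUSG00000032323) covers 57913694 to 57935933 on the plus strand of chromosome 9, and 2.24% of its exonic bases are shared with a gene on the same strand. Cyp11b1 (ENSMUSG00000075604) covers 74699444 to 74713748 on the minus strand of chromosome 15, and Scnn1a (ENSMUSG00000030340) 125297622 to 125321906 on the plus strand of chromosome 6. The exons of the 7 genes add up to between 1.86 kb (Hsd11b2) and 8.63 kb (Nr5a2) per gene.

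Promoter windows, from 250 bases before to 50 after an annotated start, were taken from RefSeq on GRCm38.p6 for Nr3c2, the only one of the 7 with a genotype difference past the threshold, and for the pair formed by Nr5a2 and its described target Cyp11a1. They were searched on both strands for AAGGTCA, the element bound by receptors of the NR5A family, and for AGAACA, the hexamer of glucocorticoid and mineralocorticoid receptor elements. Neither motif overlaps the other. Capitals mark a match.
Nr3c2 chr8:76902080-76902379 (plus strand): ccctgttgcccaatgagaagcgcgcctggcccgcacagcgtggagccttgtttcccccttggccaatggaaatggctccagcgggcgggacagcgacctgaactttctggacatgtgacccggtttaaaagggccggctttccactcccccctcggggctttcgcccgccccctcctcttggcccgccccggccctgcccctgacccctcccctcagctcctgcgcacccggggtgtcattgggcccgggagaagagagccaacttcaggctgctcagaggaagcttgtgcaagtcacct
Nr5a2 chr1:136953581-136953880 (minus strand): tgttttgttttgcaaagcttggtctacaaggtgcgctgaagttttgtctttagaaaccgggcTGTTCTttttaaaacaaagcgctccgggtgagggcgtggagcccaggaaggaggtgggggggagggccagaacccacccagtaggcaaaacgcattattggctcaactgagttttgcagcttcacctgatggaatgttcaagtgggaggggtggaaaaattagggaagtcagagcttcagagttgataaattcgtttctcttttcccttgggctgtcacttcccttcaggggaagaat
Nr5a2 chr1:136960399-136960698 (minus strand): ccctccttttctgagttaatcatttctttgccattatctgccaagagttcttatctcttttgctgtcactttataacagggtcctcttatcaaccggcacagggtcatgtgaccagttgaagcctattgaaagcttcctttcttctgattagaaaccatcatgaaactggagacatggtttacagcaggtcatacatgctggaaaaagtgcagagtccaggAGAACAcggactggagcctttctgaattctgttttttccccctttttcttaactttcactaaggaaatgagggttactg
Cyp11a1 chr9:57997774-57998073 (plus strand): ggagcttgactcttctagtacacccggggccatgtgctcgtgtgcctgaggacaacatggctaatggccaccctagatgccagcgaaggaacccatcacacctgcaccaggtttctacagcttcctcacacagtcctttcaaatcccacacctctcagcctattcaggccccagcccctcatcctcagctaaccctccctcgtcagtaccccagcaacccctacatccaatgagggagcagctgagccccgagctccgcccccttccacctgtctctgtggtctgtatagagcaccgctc
Cyp11a1 chr9:58014702-58015001 (plus strand): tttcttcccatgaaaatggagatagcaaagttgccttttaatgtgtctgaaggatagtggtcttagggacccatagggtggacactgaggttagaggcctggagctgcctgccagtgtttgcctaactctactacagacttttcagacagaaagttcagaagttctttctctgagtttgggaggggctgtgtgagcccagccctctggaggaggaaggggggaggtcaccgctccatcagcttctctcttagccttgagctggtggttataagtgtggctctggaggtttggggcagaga
AGAACA was found in both Nr5a2 windows, as TGTTCT, on the strand opposite to the printed one, with its first base 188 bases before the start in the first window, and on the printed strand 29 bases before the start in the second. That hexamer occurs in 19% of the 32851 promoter windows of 300 bases, and AAGGTCA in 4.72% of them. Neither motif was present in the Nr3c2 window, in either Cyp11a1 window or in the Hsd11b1 window, which is not printed. A match in such a short word describes the letters only.

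The libraries held 11126297 to 15910292 counts. Titles decided the genotype of each library, since the genotype field of the labels assigns WT to all Paneth and GRKO to all non-Paneth libraries. Nr3c1 followed the titles: it stood at 40.8 to 54.1 TMM-scaled CPM (the count's share of the library total, divided by a factor for library composition, the level used throughout) in the WT and at 5.82 to 15.4 in the GRKO libraries of Paneth cells, and at 110 to 131 and 13.1 to 24.5 in those of non-Paneth cells. The sum of 8 Paneth cell markers was 440000 to 686000 CPM in the Paneth and 567 to 1620 CPM in the non-Paneth libraries. The sum of 8 enterocyte markers was 23700 to 26200 CPM in WT and 4690 to 5950 CPM in GRKO non-Paneth libraries, so the summed marker content of that fraction differed between the genotypes. All 8 had a negative log2 fold change there, but only 3 were called lower. With GR deletion 37.3% of all tested genes were called in non-Paneth and 3.22% in Paneth cells. The sum of 6 tuft cell markers was 3.12 to 8.83 CPM in WT (Il25 at 0) and 62.9 to 247 CPM in GRKO non-Paneth libraries, with 4 of 5 tested markers called higher, and 159 to 437 and 405 to 1080 CPM in the Paneth fraction, with 0 called. The sum of 6 stem and proliferating cell markers was lower in GRKO (4290 to 6060 CPM) than in WT Paneth libraries (7850 to 8360 CPM) with 0 markers called, and higher in GRKO (5220 to 6450 CPM) than in WT non-Paneth libraries (3810 to 5020 CPM) with 5 of 6 called. Most of this sum was Olfm4, at 3420 to 5150 CPM in GRKO and 6930 to 7470 CPM in WT Paneth libraries. Smoc2 was also lower there without overlap, while Lgr5, Ascl2, Mki67 and Top2a overlapped. Over the 12 libraries the summed goblet cell markers ranged from 4240 to 14700 CPM, enteroendocrine markers from 112 to 562, stromal and endothelial markers from 1.54 to 11.8 (Pdgfra at 0 in each group) and immune markers from 4.48 to 37.7. Both libraries of WT replicate 2 carried Xist (127 to 257 CPM by library totals) and the other 10 did not exceed 0.52 CPM, so values without that replicate are given beside the results below where they end or add a call.

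Of the 7 genes, 3 were too low to measure, which was defined as no library with 10 counts. Hsd11b1, which would regenerate corticosterone, had 0 counts in all 12 libraries. Cyp11b1, the enzyme of the last step to corticosterone, also had 0 counts in all 12. A count of 0 allows up to 0.0182 CPM over the 12 libraries together (3 counts, a limit that covers counting error only) and up to 0.27 CPM in a single library. Cyp11a1 had 16 counts in all, at most 3 in a library: among Paneth libraries 1, 1 and 1 (WT) and 3, 0 and 0 (GRKO), among non-Paneth libraries 2, 2 and 0 (WT) and 2, 2 and 2 (GRKO). No group stood out at this depth, and no fold was computed for these genes.

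The other 4 genes were counted in every library, with 3850 counts over the 12 libraries for Nr3c2, 2526 for Hsd11b2, 6114 for Nr5a2 and 2931 for Scnn1a. Compared per kb of exon in WT non-Paneth cells, Hsd11b2 had the highest mean level (7.19 CPM per kb), followed by Nr5a2 (4.26), Nr3c2 (3.13) and Scnn1a (3.10). In WT Paneth cells the means were 6.06 CPM per kb for Hsd11b2, 3.97 for Scnn1a, 2.68 for Nr5a2 and 2.10 for Nr3c2. Nr3c1 stood above Nr3c2 in both, at 15.5 CPM per kb in WT non-Paneth and 6.15 in WT Paneth cells.

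**Figure D1:**
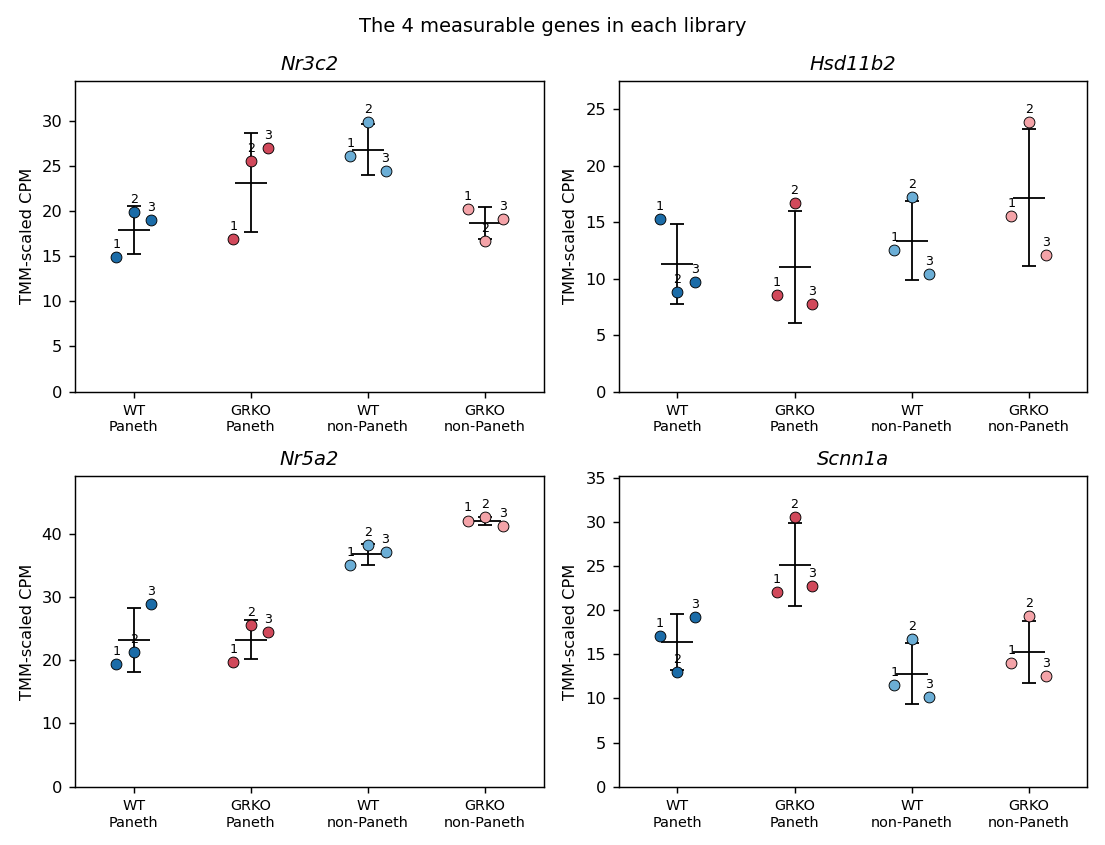
TMM-scaled CPM of the 4 measurable genes in each of the 12 libraries, by group (points, numbered by replicate), with the mean and SD of the 3 libraries (bars). Nr5a2 separates the 2 cell fractions without overlap, and the Nr3c2 mean is higher in GRKO than in WT Paneth libraries but lower in GRKO than in WT non-Paneth libraries.

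Nr3c2 was 1.5-fold lower in WT Paneth than in WT non-Paneth cells and fell with GR deletion in the non-Paneth fraction. In replicates 1, 2 and 3 it stood at 14.9, 19.9 and 19.0 CPM in WT Paneth libraries (18 ± 2.67, SD, n = 3) and at 26.1, 29.9 and 24.4 CPM in WT non-Paneth libraries (26.8 ± 2.79). The GRKO libraries had 16.9, 25.5 and 27.0 CPM in the Paneth fraction (23.1 ± 5.42) and 20.2, 16.7 and 19.1 CPM in the non-Paneth fraction (18.7 ± 1.79). All WT non-Paneth libraries lay above all WT Paneth and all GRKO non-Paneth libraries, while the 2 Paneth groups overlapped through the low GRKO replicate 1. In the order of the group means (WT non-Paneth, GRKO Paneth, GRKO non-Paneth, WT Paneth) each pair of neighbours overlapped.

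By edgeR's quasi-likelihood test with Benjamini-Hochberg adjustment over 13057 genes, the log2 fold change of Nr3c2 between WT Paneth and WT non-Paneth cells was -0.58 (SE 0.176, adjusted p = 0.0119). Without the WT non-Paneth replicate 2 it was -0.40 (adjusted p = 0.0972), and without both libraries of WT replicate 2 it was -0.56 (adjusted p = 0.0573). In GRKO cells the same difference was 0.31 (95% interval -0.05 to 0.68, adjusted p = 0.165), which was 0.49 (adjusted p = 0.0249) without GRKO Paneth replicate 1 and turned to -0.64 (adjusted p = 0.00752) when libraries were scaled by their totals only. GR deletion went with a log2 fold change of -0.52 (SE 0.17, adjusted p = 0.0246) in non-Paneth cells and of 0.37 (95% interval -0.01 to 0.75, adjusted p = 0.193) in Paneth cells.

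The genotype difference of Nr3c2 itself differed between the fractions, by 0.90 on the log2 scale (SE 0.246, 95% interval 0.37 to 1.42, adjusted p = 0.0206). With library totals only, the difference between fractions was 0.65 (adjusted p = 0.111) and the non-Paneth fold change -0.24 (adjusted p = 0.342). Without both libraries of WT replicate 2 they were 0.90 (adjusted p = 0.0527) and -0.44 (adjusted p = 0.105), and leaving out GRKO Paneth replicate 2 or 3 or WT non-Paneth replicate 2 also ended the first call, with adjusted p from 0.0504 to 0.0568. The non-Paneth call was also lost without replicate 2 of either genotype (adjusted p = 0.0579 and 0.0625). Nr3c2 and the enterocyte marker sum were both lower in GRKO than in WT non-Paneth libraries. Among the WT non-Paneth libraries, replicate 2 had the highest Nr3c2 (29.9 CPM) and the lowest enterocyte marker sum (23700 CPM). The part of cell makeup in the Nr3c2 level was not tested.

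**Figure D2:**
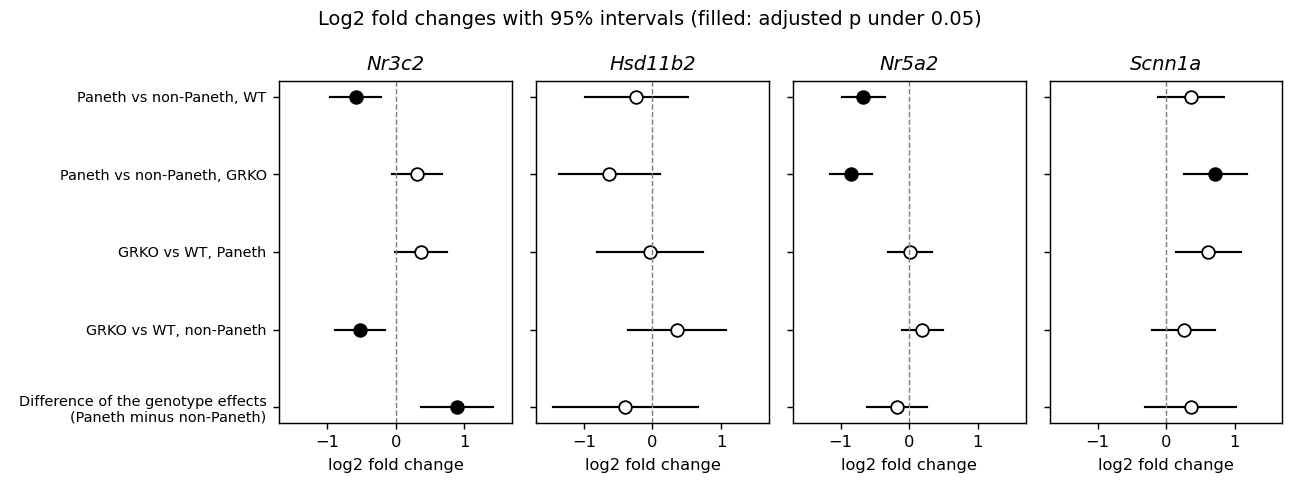
Log2 fold changes (points) with 95% intervals (lines) of the 4 measurable genes in the 5 comparisons, filled where the adjusted p was under 0.05. Of the 20 values, 6 passed, 3 of them for Nr3c2, and in Hsd11b2 each interval includes 0.

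Set against the glucocorticoid receptor, the 2 receptor transcripts stood in a different ratio in every WT than in every GRKO library. The ratio of Nr3c2 to Nr3c1 counts per kb was 0.341 ± 0.0205 in WT Paneth and 0.203 ± 0.0266 in WT non-Paneth cells (SD, n = 3). In GRKO cells it was 2.53 ± 1.31 in the Paneth and 0.939 ± 0.226 in the non-Paneth fraction. The deletion lowers the denominator by design, so the ratios are a description, and the Nr3c1 transcript that remains need not encode a working receptor.

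**Figure D3:**
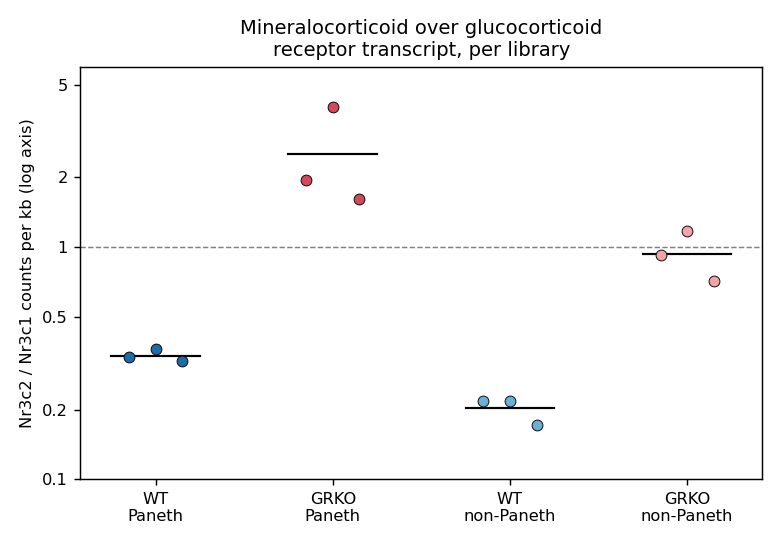
Ratio of Nr3c2 to Nr3c1 counts per kb of exon in each library (points, log axis), with the group mean (bar) and a dashed line at 1. All WT libraries lie below all GRKO libraries, and all GRKO Paneth libraries lie above 1.

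Hsd11b2, which inactivates corticosterone, showed no difference past the threshold in any comparison of the main test, though some alternatives called it between GRKO fractions. It stood at 15.3, 8.78 and 9.70 CPM in WT Paneth libraries (11.3 ± 3.52) and at 8.58, 16.7 and 7.76 CPM in GRKO Paneth libraries (11 ± 4.92). The non-Paneth libraries had 12.5, 17.2 and 10.4 CPM in WT (13.4 ± 3.48) and 15.5, 23.9 and 12.1 CPM in GRKO (17.2 ± 6.11). Every group overlapped with the next in the order of means, and replicate 2 was the highest of its group in all groups but WT Paneth. The log2 fold change was -0.24 (95% interval -0.99 to 0.52) between WT fractions, -0.63 (-1.37 to 0.11) between GRKO fractions, -0.03 (-0.81 to 0.74) with GR deletion in Paneth cells and 0.36 (-0.36 to 1.08) in non-Paneth cells, and the genotype effects differed by -0.40 (-1.45 to 0.66). Adjusted p in these 5 comparisons lay between 0.166 and 0.963. Each interval reaches past a 1.5-fold change in one direction or the other, so such a change was not detectable at this spread between replicates. Between GRKO fractions 4 of 21 alternatives called it lower in Paneth cells. Leaving out GRKO Paneth replicate 2 gave -1.08 (adjusted p = 0.0237) and a replicate block -0.66 (adjusted p = 0.0124). The others were library totals (-1.59) and no filter on low counts (adjusted p = 0.0018). Per kb, Hsd11b2 exceeded Nr3c2 on average in all 4 groups, by 3.03 times in WT and 2.22 times in GRKO Paneth cells, and by 2.27 and 4.34 times in the non-Paneth fraction.

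Nr5a2 was lower in Paneth than in non-Paneth cells in both genotypes and was not called with GR deletion. It stood at 19.4, 21.3 and 28.9 CPM in WT Paneth libraries (23.2 ± 5.02) and at 19.8, 25.5 and 24.5 CPM in GRKO Paneth libraries (23.3 ± 3.03). In the non-Paneth fraction it was 35.0, 38.2 and 37.1 CPM in WT (36.8 ± 1.65) and 42.1, 42.7 and 41.3 CPM in GRKO (42 ± 0.704). The 6 Paneth libraries lay below the 6 non-Paneth libraries, and the GRKO non-Paneth libraries above the WT ones. The log2 fold change between fractions was -0.67 in WT (SE 0.147, adjusted p = 0.00135) and -0.85 in GRKO cells (SE 0.145, adjusted p = 0.000286), and these differed by -0.18 (95% interval -0.62 to 0.26, adjusted p = 0.582). With library totals only, the fractions differed by -1.37 in WT (adjusted p = 6.32e-06) and by -1.81 in GRKO cells (adjusted p = 3.54e-07). With GR deletion it was 0.01 (95% interval -0.31 to 0.33) in Paneth and 0.19 (-0.11 to 0.49, adjusted p = 0.303) in non-Paneth cells, and 0.48 (adjusted p = 0.0359) in the latter with library totals only. Nr5a2 transcript was counted in each library in which Cyp11b1 had 0 counts and Cyp11a1 at most 3.

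Scnn1a, the alpha subunit of the epithelial sodium channel, was 1.65-fold higher in GRKO Paneth than in GRKO non-Paneth cells after TMM scaling, a direction that reversed with library totals. Among Paneth libraries its levels were 17.1, 13 and 19.2 CPM in WT (16.4 ± 3.14) and 22.1, 30.6 and 22.8 CPM in GRKO (25.2 ± 4.71). Among non-Paneth libraries they were 11.5, 16.7 and 10.2 CPM in WT (12.8 ± 3.42) and 14, 19.3 and 12.6 CPM in GRKO (15.3 ± 3.55). The GRKO Paneth libraries were the highest of the 12 without overlap, and the other 3 groups overlapped in order. The difference between GRKO fractions was 0.72 (SE 0.217, adjusted p = 0.0157), was 0.55 (adjusted p = 0.089) without GRKO Paneth replicate 2 and turned to -0.24 (adjusted p = 0.368) with library totals only. Between WT fractions it was 0.36 (95% interval -0.12 to 0.84, adjusted p = 0.195), which became 0.70 (adjusted p = 0.0253) without WT non-Paneth replicate 2, 0.75 (adjusted p = 0.0209) without both libraries of WT replicate 2 and -0.32 (adjusted p = 0.278) with library totals only. With GR deletion the values were 0.62 in Paneth cells (SE 0.223, unadjusted p = 0.0144, adjusted p = 0.102) and 0.26 in non-Paneth cells (adjusted p = 0.372), with no overlap of WT and GRKO Paneth libraries, and these effects differed by 0.36 (95% interval -0.30 to 1.02, adjusted p = 0.453). The sum of 6 tuft cell markers was 816, 1080 and 405 CPM in GRKO and 159, 315 and 437 CPM in WT Paneth libraries, overlapping through the lowest GRKO library, and their part in the Scnn1a level was not tested. Scnn1b and Scnn1g, the beta and gamma subunits, had 0 counts in all 12 libraries.

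Over the 4 tested genes, 2 were called lower in WT Paneth than in WT non-Paneth cells, where 50.7% of all tested genes were called. Between GRKO fractions 1 was higher and 1 lower, against 39.2% called of all genes. With GR deletion 0 of 4 were called in Paneth cells (3.22% of all genes; 1 of the 4, Scnn1a, had an unadjusted p under 0.05, and DESeq2 also called 0) and 1 in non-Paneth cells (37.3%). The difference of the genotype effects was called for 1 of 4, against 18.7% of all genes. With 4 genes these shares are read as no result about the group. The median log2 fold change of the 4 was -0.41 between WT fractions, -0.16 between GRKO fractions, and 0.19 and 0.22 with GR deletion in Paneth and non-Paneth cells. Scaling by library totals called 8989 of the 13057 tested genes between WT fractions, 10784 between GRKO fractions and 5826 with GR deletion in non-Paneth cells. Over all tested genes, the median log2 fold change went with library totals from 0.01 to -0.68 between WT fractions, from -0.08 to -1.05 between GRKO fractions and from 0.02 to 0.31 with GR deletion in non-Paneth cells. The change of scaling shifts all genes of a comparison by nearly the same amount. That Scnn1a and Nr3c2 stayed above the median gene where they turned negative was therefore fixed in advance and is no result.

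The genes around the mineralocorticoid receptor were looked at by role. Of 5 steroid receptors, Nr3c1 and Nr3c2 were tested, and Esr1, Esr2 and Pgr were too rare for the test. Of 7 chaperones and co-chaperones that hold steroid receptors ready for hormone, 5 rose with GR deletion in non-Paneth cells, where 37.3% of all tested genes were called, and 0 were called in Paneth cells (3.22% of all). The median over the 7 was 0.57 in non-Paneth cells, against 0.02 over all tested genes. The largest rises were those of Hsp90aa1 (0.82, adjusted p = 0.00492), Ptges3 (0.64, adjusted p = 0.00631), Stip1 (0.63, adjusted p = 0.0183) and Fkbp4 (0.57, adjusted p = 0.00472), all log2 fold changes from edgeR, and 3 of the 5 were called without both libraries of WT replicate 2, with Stip1 (0.51, adjusted p = 0.0999) and Hsp90ab1 (0.45, adjusted p = 0.067) lost. Without those libraries 3610 of all tested genes were called. Between GRKO fractions Fkbp4 was lower in Paneth cells (-0.44, adjusted p = 0.019) and the other 6 were not called, against 39.2% called of all tested genes. Between WT fractions 0 of the 7 were called, against 50.7% of all. Fkbp5, a co-chaperone that glucocorticoids induce, was called between WT fractions with a replicate block (0.45, adjusted p = 0.0262). With library totals 7 were lower between GRKO and 6 between WT fractions, where 10784 and 8989 of all 13057 tested genes were called. The sum of stem and proliferating cell markers was also higher in GRKO than in WT non-Paneth libraries, and their part was not tested.

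Sodium channel and aldosterone-response genes included 12 tested of 14. In WT Paneth against WT non-Paneth cells 3 were higher and 7 lower (50.7% of all tested genes were called in this comparison), led by the sodium-proton exchanger Slc9a3 (-5.45), Sgk1 (-3.06), the deubiquitinase Usp2 (-1.28) and the sodium pump subunit Atp1b1 (-1.10). Between GRKO fractions 3 were higher and 6 lower (39.2% of all), led by Slc9a3 (-3.42), Sgk1 (-1.93), Usp2 (-1.10) and Scnn1a (0.72). With library totals 0 were called higher in either, and Per1 between WT fractions and Scnn1a, Prss8 and Stk39 between GRKO fractions changed sign. That scaling called 8989 (WT) and 10784 (GRKO) of all 13057 tested genes. Without both libraries of WT replicate 2 the count between WT fractions was 4 higher, with Scnn1a added, and 7 lower. Of all tested genes 5213 were called there. With GR deletion in non-Paneth cells 2 rose and 5 fell (37.3% of all), the latter led by Sgk1 (-2.91, adjusted p = 7.37e-05), Slc9a3 (-2.04, adjusted p = 0.0295) and Tsc22d3 (-0.85, adjusted p = 0.00103), a leucine zipper gene that glucocorticoids induce. The kinase Stk39 rose by 0.67 (adjusted p = 0.000734). With library totals the split there was 3 higher and 3 lower, with no change of sign among the 7, and without both libraries of WT replicate 2 it was 1 higher and 5 lower, with Prss8 lost (0.31, adjusted p = 0.0838). Over all tested genes these settings called 5826 and 3610. The median of the 12 was -0.12 in non-Paneth cells. In Paneth cells 1 of 12 fell and 0 rose (3.22% of all were called), with a median of 0.08 against 0.03 over all tested genes.

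The 1 gene called there was Sgk1, the kinase through which the mineralocorticoid receptor raises sodium channel activity. Among Paneth libraries it stood at 9.87, 14.6 and 10.4 CPM in WT and at 2.17, 4.14 and 3.59 CPM in GRKO, and among non-Paneth libraries at 67.2, 144 and 79.2 CPM in WT and at 9.13, 12 and 17.4 CPM in GRKO. No WT library overlapped with a GRKO library of its fraction. The log2 fold change in Paneth cells was -1.78 (adjusted p = 0.0448), -1.73 (adjusted p = 0.059) with library totals only and -1.59 (adjusted p = 0.0712) without both libraries of WT replicate 2. With single libraries left out its adjusted p ran from 0.0462 to 0.224, the highest without GRKO Paneth replicate 2, and the call was lost without GRKO Paneth replicate 2 or 3, WT Paneth replicate 1 or 2, any GRKO non-Paneth library or WT non-Paneth replicate 3. In non-Paneth cells the log2 fold change was -2.62 (adjusted p = 9.94e-05) with library totals and -2.51 (adjusted p = 2.26e-05) without both libraries of WT replicate 2. The difference of the genotype effects of Sgk1 between the fractions was 1.14 (adjusted p = 0.148), and it was called with a replicate block (1.07, adjusted p = 0.00676), by DESeq2 (1.17, adjusted p = 0.0444) and without the filter on low counts (1.12, adjusted p = 0.000496). Atp1b1, a beta subunit of the sodium pump, fell in GRKO non-Paneth cells by 0.44 on the log2 scale and had a value of 0.12 in Paneth cells, and the difference between the fractions was past the threshold (0.56, adjusted p = 0.0335), but not with library totals (adjusted p = 0.343) or without both libraries of WT replicate 2 (adjusted p = 0.0888).

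**Figure D4:**
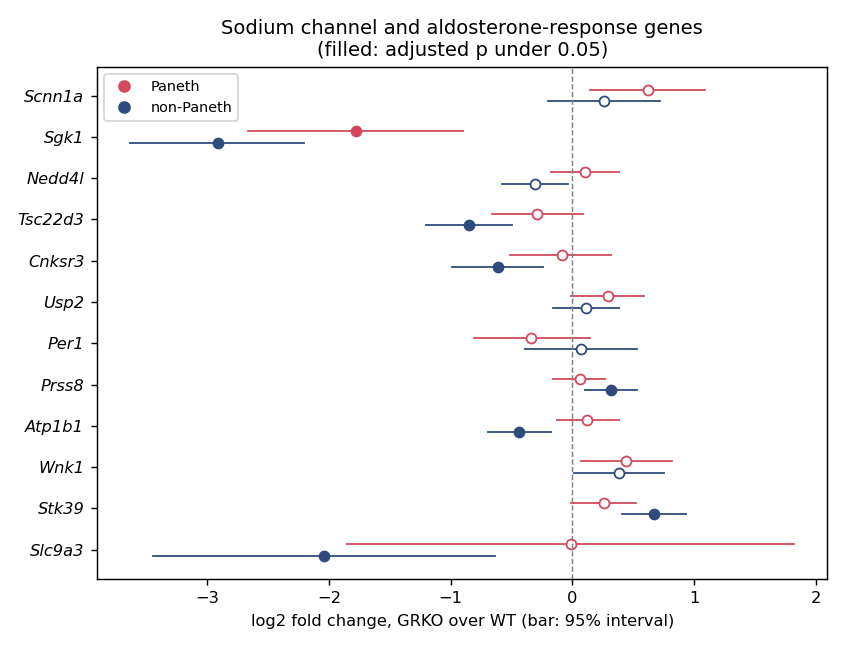
Log2 fold change of GRKO over WT (points) with 95% intervals (lines) in Paneth and non-Paneth cells for the 12 tested sodium channel and aldosterone-response genes, filled where the adjusted p was under 0.05. Sgk1 is filled in both fractions, 6 further genes are filled in non-Paneth cells, and Scnn1a in neither.

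The route from cholesterol to corticosterone was incomplete in the counts. Of 15 synthesis genes 8 were tested. The cholesterol handling and electron transfer genes Stard3, Tspo, Fdx1 and Fdxr, which also serve other pathways, had group means of 4.76 to 6.36, 10.1 to 14, 1.76 to 2.48 and 1.21 to 1.76 CPM per kb. Cyp11b1, Cyp11b2 (aldosterone synthase), Cyp21a1, Hsd3b1 and Hsd3b6 had 0 counts in every library, Cyp17a1 at most 9 counts, and Star, the carrier of cholesterol into adrenal mitochondria, group means of 0.176 to 0.688 CPM. Between WT fractions 3 of 8 were lower in Paneth cells, namely Hsd3b3 (-3.10), Hsd3b2 (-2.62) and Stard3 (-0.34), against 50.7% called of all tested genes. Between GRKO fractions 1 of 8 was lower, Hsd3b3 (-1.68), against 39.2% called of all. The count between WT fractions was 2 with RLE factors, DESeq2's way of scaling (Stard3 at -0.33, adjusted p = 0.0549), and without both libraries of WT replicate 2 (Stard3 at -0.27, adjusted p = 0.236). Over all tested genes these settings called 6630 and 5213. With library totals 8 of 8 were lower between WT and 7 between GRKO fractions, where 8989 and 10784 of all 13057 tested genes were called. With GR deletion Hsd3b7, which acts in bile acid synthesis, and Stard3 fell in non-Paneth cells (-1.97, adjusted p = 0.0264, and -0.42, adjusted p = 0.0201). These were 2 of 8, against 37.3% called of all tested genes, and 0 of 8 were called in Paneth cells (3.22% of all). The Stard3 call was lost with library totals (-0.13, adjusted p = 0.565) and without both libraries of WT replicate 2 (-0.41, adjusted p = 0.0641). The median of the 8 was -0.65 between WT fractions, -0.16 with GR deletion in Paneth and -0.40 in non-Paneth cells. Hsd3b7 rested on 2 to 28 counts per non-Paneth library. Hsd3b genes resemble each other, and reads that map to several places are not counted, so their counts may be too low. Whether reads of the other genes with 0 counts were lost in the same way was not tested.

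**Figure D5:**
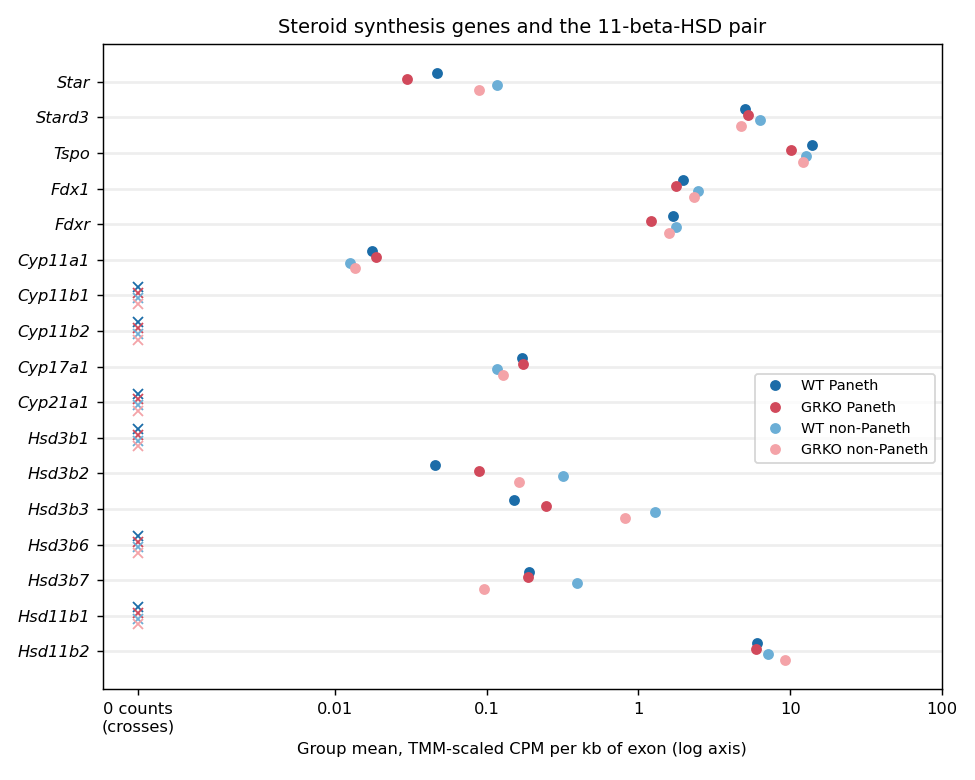
Group means of TMM-scaled CPM per kb of exon (log axis) for 15 steroid synthesis genes and for Hsd11b1 and Hsd11b2, with crosses at the left edge for 0 counts. Cyp11b1 and Hsd11b1 are at 0 in all 4 groups and Cyp11a1 lies below 0.1 CPM per kb, while Hsd11b2 lies between 5.92 and 9.23.

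Of 20 genes of steroid reduction, oxidation and conjugation, with Hsd11b1 and Hsd11b2 among them, 15 were tested. H6pd, which feeds Hsd11b1 with NADPH, was present although Hsd11b1 was not, with means of 17.3 to 23.9 CPM in the 4 groups and no call in any comparison. Between WT fractions 1 of 15 was higher and 9 were lower in Paneth cells (50.7% of all tested genes were called), led by the sulfotransferases Sult2b1 (-4.40) and Sult1b1 (-3.66) and by Hsd17b2 (-3.17) and Hsd17b11 (-1.79), which oxidise sex steroids. Between GRKO fractions 0 were higher and 8 lower (39.2% of all were called), again led by Sult2b1 (-2.50), Sult1b1 (-2.44), Hsd17b2 (-1.71) and Hsd17b11 (-0.90). The 1 higher between WT fractions, Hsd17b10 (0.51), was not called without both libraries of WT replicate 2 (0.43, adjusted p = 0.0865) and turned to -0.19 (adjusted p = 0.266) with library totals. With those totals 0 were higher and 13 lower between WT fractions, and 15 of 15 lower between GRKO fractions, where 8989 and 10784 of all 13057 tested genes were called. With GR deletion 7 of 15 fell in non-Paneth cells, where 37.3% of all tested genes were called, led by Sult2b1 (-1.74, adjusted p = 0.00776), Sult1b1 (-1.72, adjusted p = 0.000367), Hsd17b2 (-1.57, adjusted p = 0.000263) and Hsd17b11 (-1.11, adjusted p = 3.12e-05), and 0 of 15 were called in Paneth cells (3.22% of all). With library totals 5 fell and 2 rose in non-Paneth cells, where 5826 of all 13057 tested genes were called. The median of the 15 was -0.21 in non-Paneth and 0.06 in Paneth cells. The enterocyte marker sum was also lower in GRKO than in WT non-Paneth libraries, and its part was not tested.

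Partners and known targets of Nr5a2 were tested for 12 of 17. Between WT fractions 2 were higher and 5 lower in Paneth cells (50.7% of all tested genes were called), among them the sterol transporters Abcg5 (-3.79) and Abcg8 (-3.26), the ileal bile acid transporter Slc10a2 (-4.58) and, higher, the corepressor Prox1 (2.68). Between GRKO fractions the count was 1 higher (Prox1, 2.08) and 5 lower (39.2% of all were called), with Abcg5 at -2.17, Abcg8 at -1.72 and Nr5a2 itself next. With library totals 1 was higher and 9 lower in each genotype, where 8989 (WT) and 10784 (GRKO) of all 13057 tested genes were called. Without both libraries of WT replicate 2 the count between WT fractions was 2 higher and 4 lower, with Slc10a2 lost (-5.74, adjusted p = 0.0813). Of all tested genes 5213 were called there. With GR deletion in non-Paneth cells 4 rose and 2 fell (37.3% of all were called), with Abcg5 at -2.12 (adjusted p = 7.92e-06), Abcg8 at -2.11 (adjusted p = 3.1e-06), Prox1 at 1.13 (adjusted p = 0.0313) and the cyclin Ccne1 at 0.86 (adjusted p = 0.000755). In Paneth cells 0 of 12 were called (3.22% of all). Prox1 stood at 1.97, 3.72 and 2.24 CPM in WT and at 6.57, 8.17 and 2.71 CPM in GRKO non-Paneth libraries, overlapping through GRKO replicate 3. The tuft cell marker sum was 176, 247 and 62.9 CPM in the same GRKO libraries, in the same order, and its part in the Prox1 level was not tested. The median of the 12 was 0.14 in non-Paneth and 0.08 in Paneth cells. Myc, called higher in WT Paneth cells (0.62), was at -0.07 with library totals. Nr0b2, a repressor partner of Nr5a2, had at most 26 counts in a library, and Nr5a1 and Nr0b1 at most 2 and 0.

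Among all tested genes, those whose log2 level followed each member most closely over the 12 libraries were Sgms2 (Pearson's r = 0.949), Kmt5b (0.931) and Gab2 (0.926) for Nr3c2, Gpx3 (0.913), Filip1l (0.839) and Elf3 (0.825) for Hsd11b2, Bmp2k (0.972), Zfp706 (0.957) and Klf5 (0.949) for Nr5a2, and Dpysl2 (0.946), Il9r (0.904) and Cmtm3 (0.902) for Scnn1a. These are the highest of 13057 values for each gene, and the 12 libraries share their groups and scaling, so they are descriptions.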

How the data were processed

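RNA-seq libraries were prepared with a stranded TruSeq kit from 12 samples and sequenced single-end. The authors aligned reads to mm39 with STAR 2.7.10a, after Trimmomatic 0.39 by the submitters' processing notes, and deposited raw counts per gene obtained during alignment. Reads that map to several places are not in these counts. Of 55414 identifiers, 54742 were named through GENCODE vM39.

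The test on counts was edgeR 4.0.16 under R 4.3.3 (filterByExpr, TMM factors of 0.656 to 1.5, robust glmQLFit, glmQLFTest) with 1 mean per group and a false discovery rate of 5% over 13057 genes. TMM-scaled CPM divides counts by the total times this factor. The procedure was tested on simulated data with 200 genes changed 4-fold, of which it recovered 86.5 to 90%. False calls were 7.3% between WT fractions and 6.5% for the difference of genotype effects, above the 5% set. In the other comparisons they were 3.7 to 4.9%. Alternatives were DESeq2 1.42.0, RLE factors, library totals, TMM without Lyz1 and Defa genes, other filters, only the groups compared, a replicate block, each library left out in turn and, chosen after seeing the data, both libraries of WT replicate 2 left out. The labels name no batch and do not say that replicates came from separate mice, so p-values measure the spread between these samples. After removing group means, libraries of 1 number in the WT fractions correlated at 0.38, 0.24 and 0.28, above the limit of 0.1, so numbers pair them. For GRKO fractions the values were -0.039, 0.26 and 0.48. The main test, with 1 mean per group, did not use this pairing. The replicate block was genotype and number together for the fraction comparisons and the difference. For GR deletion it was the number alone, shared by WT and GRKO libraries, which the labels do not pair. Those of 1 number correlated at 0.11, 0.16 and -0.097 in Paneth and at -0.1, 0.17 and -0.1 in non-Paneth cells. Pairs of libraries within a group differed by more than counting noise (chi-square per degree of freedom of 12.3 to 47.1).

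The 7 genes and all lists were chosen with earlier results of these data known. Named are all 7, Nr3c1 and, per list and comparison, up to 4 genes past the threshold with the largest change, plus the 3 genes most like each member by correlation of log2(TMM-scaled CPM + 0.5). Genes described as at 0 or as untested, Fkbp5, H6pd, Hsd17b10, Hsp90ab1, Prss8, Slc10a2 and the cholesterol handling genes with group means were added after their values were seen. A few genes of the lists are not reported here, and the counts leave them out. RefSeq promoter windows were given for 4 of the 7 genes, and their GRCm38.p6 positions are not those of GRCm39.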

Additional observations from a re-analysis of the deposited data

Results flagged for a closer look

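For 12 of the 56 tested genes of the lists the effect of GR deletion differed between Paneth and non-Paneth cells by edgeR's test of the difference itself. The values below are the log2 fold change of GRKO over WT in Paneth cells minus that in non-Paneth cells. Nr3c2 had 0.90, from 0.37 in Paneth and -0.52 in non-Paneth cells. The sodium pump gene Atp1b1 had 0.56. Among steroid-metabolising genes, Por, the electron donor of microsomal P450 enzymes, had 0.83, Hsd17b2 1.46, Hsd17b4 0.51, Hsd17b11 0.89, Sult1b1 1.22, Ugt2b34 0.89 and the efflux pump Abcb1a 0.83. Among genes of the Nr5a2 list, Abcg5 had 1.62, Abcg8 1.54 and Myc -0.85. Apart from Hsd17b4, each of the 12 was also past the threshold with GR deletion in non-Paneth cells, and none was in Paneth cells. The comparison called 18.7% of all tested genes, a share near that of 12 in 56. The count is therefore read as no result about the lists. With library totals 6 of the 12 kept the call (Hsd17b2, Sult1b1, Ugt2b34, Myc, Abcg5 and Abcg8), and without both libraries of WT replicate 2 it was lost for Nr3c2, Atp1b1, Hsd17b4 and Abcb1a. Over all tested genes these settings called 2588 and 1682.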

How the results depend on the processing

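Of 416 recomputed values for the 4 genes (log2 fold changes under each alternative), 369 kept their direction and their side of the threshold, 12 lost a call, 10 gained one and 25 changed direction. With GR deletion in Paneth cells the number of called genes was 1 without the filter on low counts (Scnn1a, 0.64, adjusted p = 0.0118), and 0 to 1 when a library was left out, the 1 being Nr3c2 without GRKO replicate 1 (0.55, adjusted p = 0.0389). With GR deletion in non-Paneth cells it was 0 without both libraries of WT replicate 2 and 0 to 1 when a library was left out (0 without replicate 2 of either group, with Nr3c2 at -0.51, adjusted p = 0.0579, and -0.48, adjusted p = 0.0625). With library totals it was 1, but the gene was Nr5a2 and not Nr3c2. For the difference of genotype effects it was 0 with library totals and without both libraries of WT replicate 2, and 0 to 1 when a library was left out (0 without GRKO Paneth replicate 2 or 3, or WT non-Paneth replicate 2, with adjusted p = 0.0568, 0.0527 and 0.0504). Without both libraries of WT replicate 2, the 2 genes called between WT fractions were Nr5a2 and Scnn1a.

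Direction changed for Scnn1a (-0.32 between WT and -0.24 between GRKO fractions) and Nr3c2 (-0.64 between GRKO fractions) with library totals. For Hsd11b2 it changed between WT fractions without WT non-Paneth replicate 2 (0.09) or without both libraries of WT replicate 2 (0.15), with a range of -0.53 to 0.09 over single libraries left out, and with GR deletion in Paneth cells without GRKO replicate 1 (0.11), GRKO replicate 3 (0.17) or WT replicate 1 (0.26), with a range of -0.47 to 0.26. Nr5a2 with GR deletion in Paneth cells, at 0.01, was -0.04 with the stricter filter, with only the groups compared and without both libraries of WT replicate 2, and -0.10, -0.06, -0.04, -0.03 or -0.02 with a library left out (range -0.10 to 0.20). Without GRKO non-Paneth replicate 2, Hsd11b2 (-0.02, range up to 0.54) and Scnn1a (-0.01, range up to 0.45) changed direction with GR deletion in non-Paneth cells. The difference of genotype effects became 0.01 for Nr5a2 without WT Paneth replicate 3 (range -0.30 to 0.01) and -0.02 for Scnn1a without both libraries of WT replicate 2. Apart from library totals and the omitted samples, the cause was not tested.

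With a replicate block, 2 genes were called between WT fractions, 3 between GRKO fractions, 0 and 1 with GR deletion and 1 for the difference. The added gene was Hsd11b2 between GRKO fractions (-0.66, adjusted p = 0.0124). Libraries of numbers 2 and 3 correlated there at 0.26 and 0.48, above the limit of 0.1, and those of number 1 at -0.039. The block changed no other call of the 4 genes. Over the 56 tested genes of the lists, these 4 included, it added 1 call between WT fractions (Fkbp5), 4 between GRKO fractions and 5 for the difference (Sgk1 among them). With GR deletion, where the block joined WT and GRKO libraries by number alone, it added 3 calls in Paneth and 1 in non-Paneth cells. It ended 1 call, that of Slc9a3 with GR deletion in non-Paneth cells (-2.05, adjusted p = 0.0674). Between GRKO fractions Hsd11b2 was also called with library totals (-1.59, adjusted p = 0.00233) and without the filter (-0.70, adjusted p = 0.0018). The count over all genes with GR deletion in Paneth cells, 420, was the least stable: it was 1464 by DESeq2, 1780 without the filter, 977 with the block, 2 with library totals, 0 with only the groups compared, 1 without both libraries of WT replicate 2 and 0 to 1618 with a library left out, so the share of 3.22% given beside the 4 genes moves with these choices. It was 10784 against 5117 between GRKO fractions with library totals, and 1563 against 2446 for the difference without WT non-Paneth replicate 2. Depth limits Cyp11a1, Cyp11b1 and Hsd11b1 most.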

Other observations

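Replicate 2 had the highest Hsd11b2 and the highest Scnn1a of its group in GRKO Paneth, WT non-Paneth and GRKO non-Paneth libraries, but not in WT Paneth libraries, where it had the lowest of both. Slc10a2, the bile acid transporter of the ileum, was highest in replicate 2 in all 4 groups, at 8.46 against 0.242 and 0.378 CPM in GRKO Paneth, 3.59 against 0.19 and 0.946 in WT Paneth, 28.5 against 10.8 and 1.29 in GRKO non-Paneth and 48.5 against 27.6 and 30.7 in WT non-Paneth libraries. These values were looked up after the Hsd11b2 levels had been seen.

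Pgr, the progesterone receptor, was at most 7 counts in 10 libraries and had 24 and 26 counts in the Paneth and the non-Paneth library of GRKO replicate 3. It did not pass the filter on low counts and was not tested.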
